A study of Sus scrofa with 18 samples.

Results

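The genes described here are 41 members of the Wnt system outside the cell and at its surface: 19 Wnt ligands, 10 Frizzled receptors, 4 secreted Frizzled-related proteins, 4 Dickkopf proteins and 4 R-spondins. They were picked by gene symbol from the 29884 genes of the count table, with earlier results of these data known. Expression was measured by RNA-seq in subcutaneous fat (SAF, taken over the back ribs) and visceral fat (VAF, taken beside the kidney) of 9 male Bama pigs. Pigs were 1, 3 or 6 months old, with 3 pigs at each age and 3 libraries in each of the 6 groups. All pigs were offspring of 1 sire and were fasted before slaughter, and no treatment or genotype was compared. The groups differ by depot and age, and each age is a different set of pigs. Libraries are named by depot, age and replicate, so that VF3-1 is the first VAF library of 3 months.

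Labels conflict for some VAF samples. VF6-1 carries the name of a 6-month library under a title of 3 months, and VF3-3 the name of a 3-month library under a title of 6 months. Groups follow the library names, and values that depend on this reading are given with VF3-3 apart from VF3-1 and VF3-2. The titles also number VF6-2, VF6-3 and VF3-3 as replicates 1, 2 and 3 of VAF at 6 months, so the replicate numbers of this group differ between names and titles. The tests do not use VF6-3: the published methods drop a library with this number, although by title number that could be VF3-3. VAF at 6 months was therefore tested on 2 libraries.

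Wnt ligands are secreted, lipid-modified proteins that bind Frizzled receptors. With the co-receptors LRP5 and LRP6 they stabilise beta-catenin, which acts with TCF/LEF factors on transcription, and other ligands act without beta-catenin on cell polarity and calcium. Secreted Frizzled-related proteins bind the ligands, Dickkopf proteins block the co-receptors, and R-spondins hold Frizzled receptors at the surface by way of the LGR receptors and the ligases RNF43 and ZNRF3. In fat, beta-catenin signalling is known to hold preadipocytes back from differentiation.

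Promoter sequences are shown for the 3 members called higher in VAF with or without VF3-1 and VF3-2. Each runs 5′ to 3′ from 250 bases before the RefSeq start of the gene to 50 bases from it, in Sscrofa11.1, the build the authors aligned to, and capitals mark matches to the motifs named below. WNT2B lies at chr4:107923294-107923593 (minus strand), WNT16 at chr18:25633681-25633980 (minus strand) and RSPO1 at chr6:93690279-93690578 (minus strand).
WNT2B: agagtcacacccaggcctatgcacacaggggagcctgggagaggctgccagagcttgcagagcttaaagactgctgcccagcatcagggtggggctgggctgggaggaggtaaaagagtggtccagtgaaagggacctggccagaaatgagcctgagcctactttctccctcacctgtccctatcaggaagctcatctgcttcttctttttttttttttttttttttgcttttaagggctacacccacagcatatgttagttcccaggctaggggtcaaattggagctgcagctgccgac
WNT16: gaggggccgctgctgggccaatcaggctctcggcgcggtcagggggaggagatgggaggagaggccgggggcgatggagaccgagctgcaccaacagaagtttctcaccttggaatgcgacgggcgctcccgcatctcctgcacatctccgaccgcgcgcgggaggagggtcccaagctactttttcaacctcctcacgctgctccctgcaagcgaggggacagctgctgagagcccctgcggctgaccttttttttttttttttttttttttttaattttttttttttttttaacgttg
RSPO1: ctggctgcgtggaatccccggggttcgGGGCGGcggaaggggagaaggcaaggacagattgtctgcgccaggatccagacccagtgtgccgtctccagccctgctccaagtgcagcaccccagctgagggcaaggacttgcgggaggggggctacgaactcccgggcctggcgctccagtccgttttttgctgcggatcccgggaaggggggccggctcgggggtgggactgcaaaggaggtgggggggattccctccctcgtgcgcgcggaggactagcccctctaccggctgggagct
A TCF/LEF motif was searched on both strands, spelled CTTTGA with either A or T as its last letter. A TATA box was searched as the letters TATAAA, a GC box as the letters GGGCGG, and a GATA motif as the letters AGATAA. No motif is part of another. RSPO1 held 1 GC box, at -223 to -218 from the start, and WNT2B and WNT16 held no match. Over all 41 members, 8 promoters held a TCF/LEF match, 27 a GC box, 6 a TATA box and 1 a GATA match. Among 19556 promoters of protein-coding genes of the same length the shares were 24.1%, 50.6%, 10.9% and 9.17%. GC content was 52.7% in WNT2B, 56.3% in WNT16 and 68.7% in RSPO1.

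WNT2B was higher in VAF than in SAF, with all 9 VAF libraries above all 9 SAF libraries. WNT16, RSPO1, WNT10B, WNT5A and WNT5B were also higher in VAF when the 3 ages were compared together. No member was called higher in SAF by that comparison, which was chosen after the data were seen. Without VF3-1 and VF3-2, WNT2B, WNT16 and RSPO1 kept their calls, and WNT10B, WNT5A and WNT5B lost theirs. At single ages edgeR, the main test, called no member between depots. RSPO1 was almost absent from SAF, with 1 count in 9 libraries. It entered the tests only through VAF libraries, so its calls are not support separate from these counts. WNT7B was found in VF3-1 and VF3-2 and in no other library above 2 counts.

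Levels between genes were compared per kb of exon, as CPM (counts divided by the library total scaled with trimmed mean of M-values, times 1000000) divided by exon length. Over all 18 libraries, SFRP5 was highest with a mean of 136.5 CPM per kb, followed by SFRP1 with 98.7, SFRP4 with 49.1, FZD4 with 43.6 and SFRP2 with 27.3. The highest ligand was WNT5B, one of the pair WNT5A and WNT5B, with 10.8 CPM per kb, and the next ligand was WNT11 with 3.83. FZD8 reached 9.85, DKK2 9.58, RSPO3 9.22 and DKK3 7.29 CPM per kb. Secreted modulators and FZD4 held the top of the order. The order depends on annotated exon length, 1170 bases for SFRP5, 828 for RSPO3 and 4252 for SFRP1. Whether the short annotations are complete was not checked. In CPM, not divided by length, SFRP1 had a mean of 419.5 and SFRP5 of 159.7. Group means of SFRP5 ran from 68.6 to 227.5 CPM per kb, and those of SFRP1 overlapped this range, so the order of these neighbours changed from group to group.

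**Figure D1:**
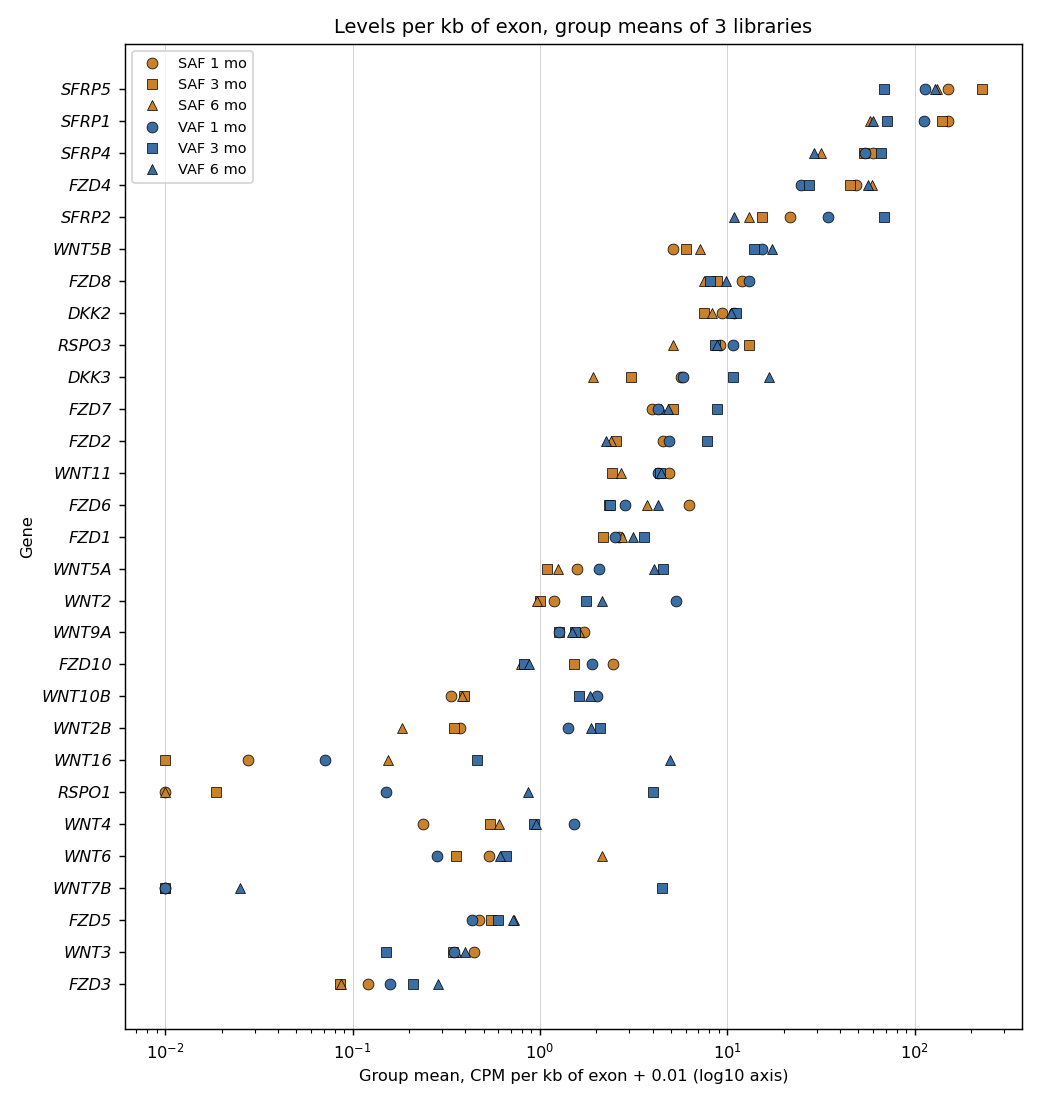
Group means of the 29 members with a mean of at least 1 CPM, as CPM per kb of exon plus 0.01 on a log10 axis, ordered by the mean over all libraries. Colours mark the depot and symbols the age. SFRP5, with 136.5 CPM per kb over all libraries, stands at the top.

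In 29 members the mean over the 18 libraries was at least 1 CPM: 12 ligands, 9 receptors, all 4 secreted Frizzled-related proteins, DKK2, DKK3, RSPO1 and RSPO3. The other 12 members were near the limit of counting. FZD9 had 4 to 28 counts per library and WNT9B 1 to 29 counts. WNT10A reached 24 counts in VF3-1 and was at 0 in 9 libraries. RSPO2 reached 12 counts, DKK1 10, WNT1 7, WNT7A 5, RSPO4 3 and WNT3A, WNT8A and DKK4 2 counts in the library where each was highest, and WNT8B had 1 count in all. WNT1 overlaps WNT10B on the opposite strand, by whole gene spans rather than exons. The strand setting of the counting is not stated, so reads from the shared stretch may not be told apart. Counts per library ran from 0 to 7 for WNT1 and from 17 to 588 for WNT10B. Gene spans also overlap for WNT2B and ST7L, WNT5B and FBXL14, FZD1 and MTERF1, FZD9 and BAZ1B and WNT8B and SEC31B. Whether their exons overlap was not checked. WNT2, WNT5A, WNT7B, WNT8A, WNT8B, WNT9B, FZD8 and DKK2 each overlap an unnamed locus of the annotation.

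**Figure D2:**
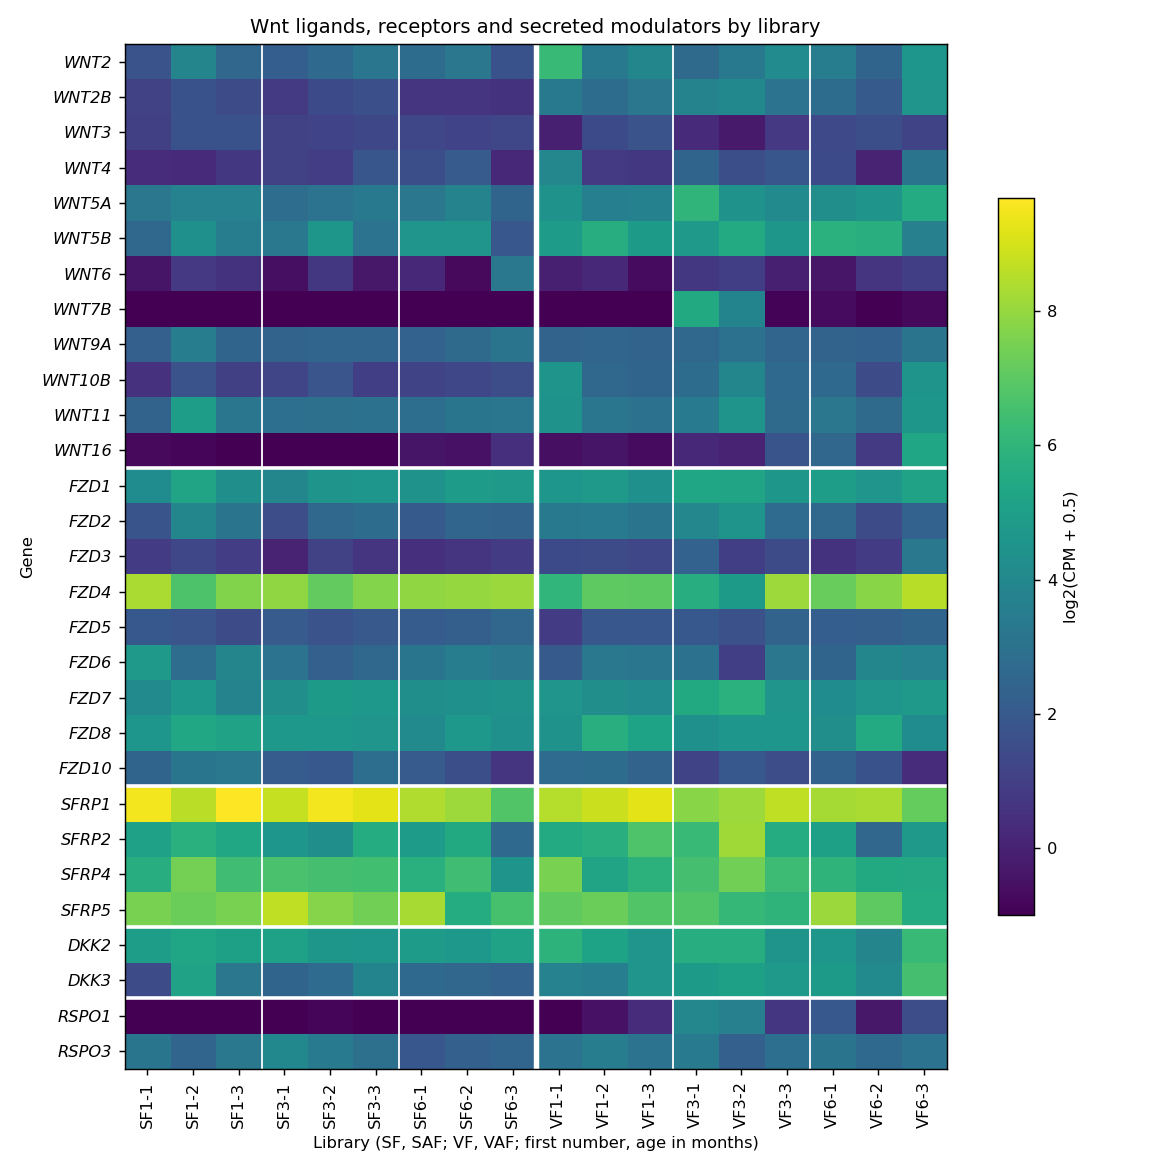
Level of the 29 members with a mean of at least 1 CPM in each of the 18 libraries, as log2(CPM + 0.5). Columns are libraries (SAF left, VAF right of the thick line) and rows are genes by role. WNT7B is bright in VF3-1 and VF3-2 alone, and WNT2B is darker in every SAF library than in any VAF library.

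Library totals ran from 16404239 to 22857354 counts, and 3 counts in a library correspond to 0.115 to 0.187 CPM, so members below that level were not detectable in it. Intervals and limits of this kind cover counting error only. All 6 adipocyte markers were found in every group, but VF3-1 and VF3-2 had the lowest adipocyte sums, 4290.9 and 4242.6 CPM against 8824.8 to 15334.7 in the other 16 libraries. The same 2 libraries carried 7 of 8 urothelial markers and 6 of 7 smooth muscle markers above all other libraries. The urothelial sum was 1918.9 CPM in VF3-1 and 805.6 in VF3-2 against a median of 1.9 CPM in the other 16 libraries, of which VF6-1 was highest with 6.01 CPM of KRT7 and 3.77 CPM of UPK1B, and the smooth muscle sum was 8303.2 and 7593.9 against 298.7 to 1237.6. Of the mesothelial markers, 4 of 7 were above all other libraries, with KRT8, KRT18 and KRT19 making up most of their sum and CALB2 at 0. In bulk tissue, fewer cells of a type and less RNA per cell cannot be told apart, and the part of these cells in the results below was not tested.

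The question of each depot comparison was which members differ between SAF and VAF of the same age. With edgeR, 0 of 27 members tested at 1 month were called, beside 0.0% of all genes, and 6 had an unadjusted p under 0.05 beside 11.3% of all genes. At 3 months 0 of 29 were called, beside 0.0401% of genes, and 13 had such a p beside 12.6% of genes. At 6 months 0 of 28 were called, beside 0.0% of genes, and 4 had such a p beside 6.79% of genes. To be called, a gene had to differ by more than 1.5-fold with a p, adjusted over all genes, under 0.05. DESeq2 at the same limits called 3 members at 1 month (1.18% of genes), 9 at 3 months (5.78%) and 3 at 6 months (1.12%). Of these 15 calls, 14 were higher in VAF (0.659%, 4.53% and 0.626% of genes at the 3 ages), and SFRP5 at 3 months was higher in SAF.

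Groups without overlap were counted as well. At 1 month all VAF libraries lay above all SAF libraries for 5 members (9.48% of genes) and below for 1 (8.28%). At 3 months they lay above for 8 (7.87%) and below for 5 (7.99%), and at 6 months, with 2 VAF libraries, above for 7 (14.0%) and below for 2 (14.3%).

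At 6 months same-numbered SAF and VAF libraries deviated together, and a fit blocked on replicate number called 5 of 28 members, all higher in VAF: WNT2B, WNT5A, WNT5B, WNT16 and DKK3. That fit held 2 VAF libraries, had 1 residual degree of freedom, and called 5.12% of all genes, 2.68% higher in VAF. With VF6-3 included as the third pair, the block called WNT5B and WNT16, beside 0.661% of genes.

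Leaving VF3-3 out of the comparison at 3 months raised the calls of edgeR from 0 to 15 of 31 members, beside a rise to 17.6% of all genes. Of the 15, 12 were higher in VAF (10.9% of all genes): WNT2B, WNT5A, WNT7B, WNT10B, WNT16, FZD1, FZD2, FZD7, SFRP2, DKK2, DKK3 and RSPO1. FZD4, SFRP1 and SFRP5 were higher in SAF. WNT7B, WNT16 and RSPO1, with at most 1 count in SAF libraries of 3 months, passed the filter on low counts through VAF alone. With VF3-3 as the only VAF library of 3 months, in a fit of all groups that takes the spread of this 1 library from the other groups, 0 members were called, beside 0.0293% of genes, and FZD4, FZD7 and DKK2 took the opposite sign. Among the 29 members with at least 1 CPM, VF3-3 lay above all 3 SAF libraries of its age for 15 (26.8% of the 14192 genes at that level), below for 8 (25.7%) and within their range for 6. VF3-1 and VF3-2 both lay above for 15 (24.8%) and both below for 5 (29.1%).

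**Figure D3:**
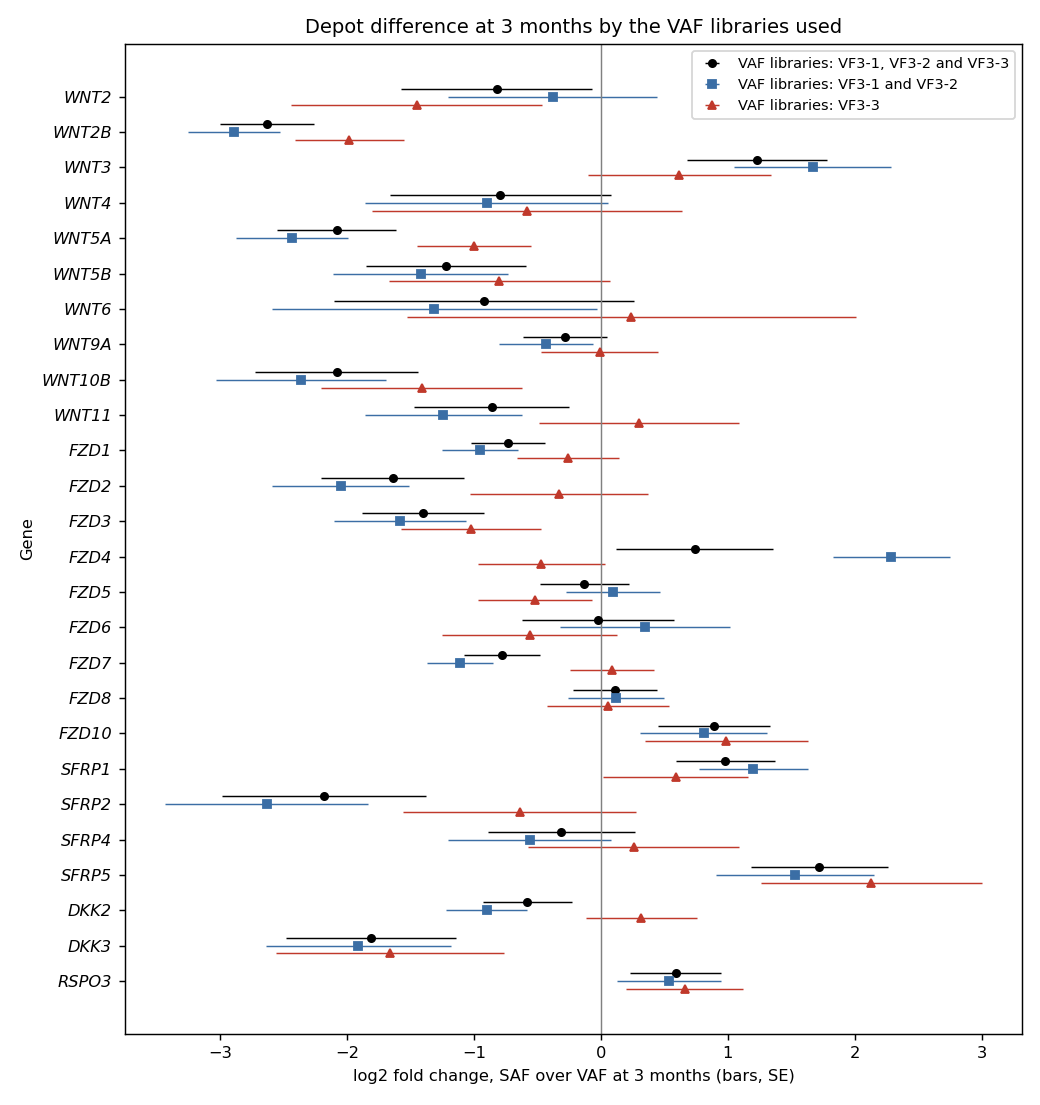
Log2 fold change of SAF over VAF at 3 months for members with at least 1 CPM, with SE bars, from fits of all groups with all 3 VAF libraries, without VF3-3, or with VF3-3 as the only one. WNT7B, RSPO1 and WNT16 are not drawn because their SAF libraries of 3 months hold at most 1 count. FZD4 lies at -0.47 with VF3-3 and at 2.29 with VF3-1 and VF3-2.

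Depots were then compared over the 3 ages together, in a contrast chosen after the data were seen that weights each age equally. In this fit of 17 libraries, 6 of 32 members were called, all higher in VAF, beside 4.09% of all genes called and 2.9% called higher in VAF. With VF3-1 and VF3-2 left out, 3 members were called, WNT2B, WNT16 and RSPO1, beside 1.66% of genes. Leaving out VF6-1 also left WNT2B, WNT16 and RSPO1 as the called members, beside 1.31% of genes. The other fits that leave out a library called 4 to 8 members, WNT2B, WNT16 and RSPO1 among them in each. Without VF3-1 and VF3-2, or without VF6-1 or VF6-2, a group kept only a single library. The filter on low counts was then looser, with 17075 genes tested without VF3-1 and VF3-2 against 16664.

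**Figure D4:**
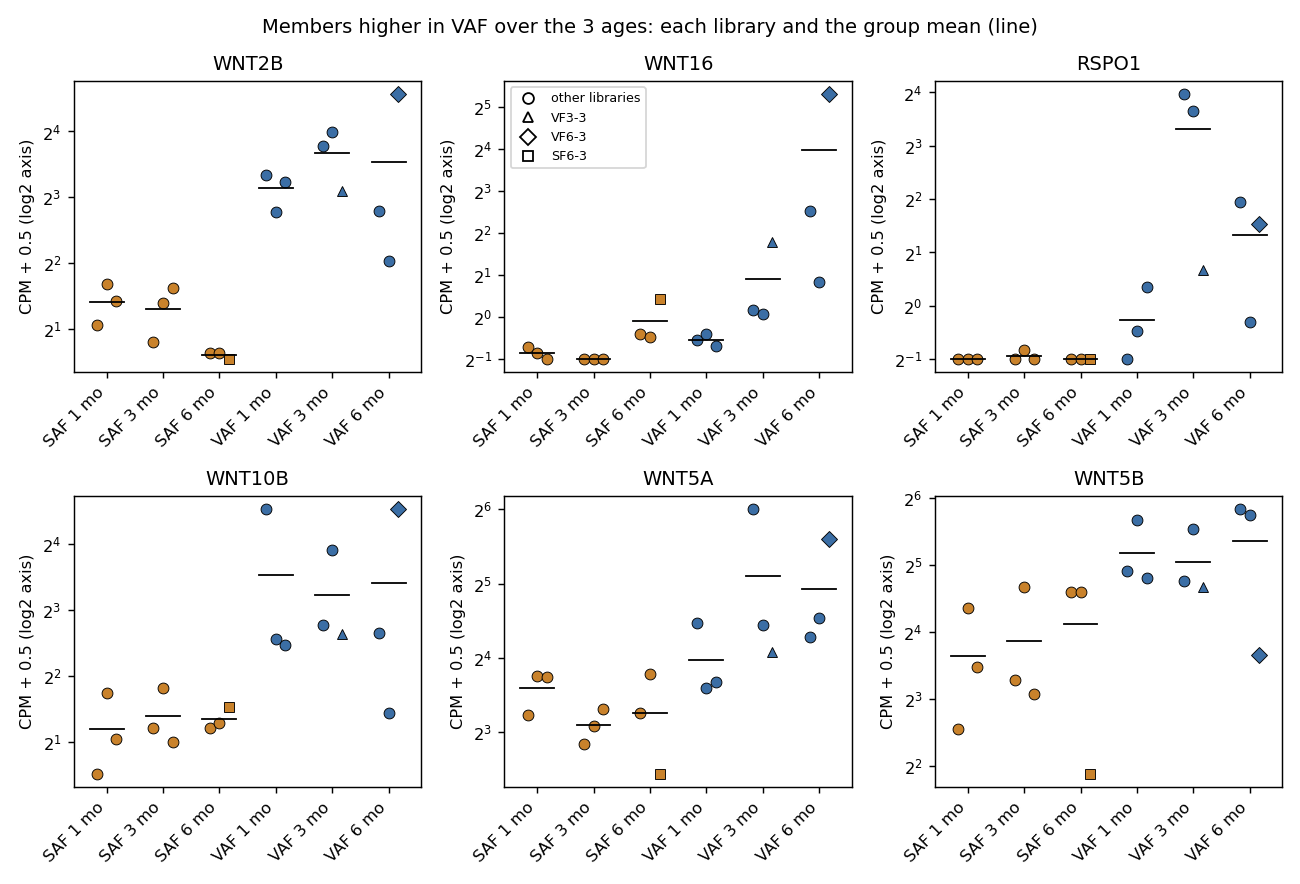
CPM plus 0.5 on a log2 axis for the 6 members called higher in VAF over the 3 ages, 1 point per library, with the mean of the 3 libraries of each group as a line (orange SAF, blue VAF). VF6-3, drawn as a diamond, was not in the tests. WNT2B is the panel in which no VAF point falls to the level of a SAF point.

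WNT2B, a ligand that acts through beta-catenin, was the one member whose depots did not overlap over all 18 libraries, a pattern shown by 40 of 16664 genes (0.24%). WNT2B in SAF gave 1.59, 2.70 and 2.19 CPM at 1 month, 1.25, 2.13 and 2.57 at 3 months and 1.06, 1.05 and 0.96 at 6 months. WNT2B in VAF gave 9.61, 6.36 and 8.89 CPM at 1 month, 13.2 and 15.4 in VF3-1 and VF3-2, 8.02 in VF3-3, and 6.42, 3.61 and 23.2 at 6 months with VF6-3 last. Every SAF value was at or below 2.70 CPM and every VAF value, VF3-3 included, at or above 3.61 CPM. Over the 3 ages it was 4.88-fold higher in VAF (log2 fold change of SAF over VAF -2.29 ± 0.22 SE, edgeR adjusted p = 0.00055), and 4.21-fold higher without VF3-1 and VF3-2 (adjusted p = 0.0033). DESeq2 called it at each age, with a fold of 3.82 at 1 month, 6.26 at 3 months and 4.90 at 6 months (adjusted p = 9.9e-06, 1.1e-06 and 0.0031).

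WNT16, a ligand known for its part in bone mass, was close to absent from SAF and from VAF of 1 month. WNT16 in SAF gave 0.11, 0.05 and 0 CPM at 1 month, 0, 0 and 0 at 3 months and 0.25, 0.22 and 0.85 at 6 months. WNT16 in VAF gave 0.18, 0.26 and 0.12 CPM at 1 month, 0.63 and 0.55 in VF3-1 and VF3-2, 2.93 in VF3-3, and 5.24, 1.28 and 38.7 at 6 months with VF6-3 last. SAF libraries held 0 to 4 counts apart from SF6-3 with 16, while the highest VAF libraries, VF3-3, VF6-1 and VF6-3, held 69, 89 and 1008 counts. VAF of 1 month was not above SAF of 6 months as a group, and at 1 month the bound was at least 1.2-fold higher in VAF. Within VAF, VF3-3 was thus higher than VF3-1 and VF3-2, the opposite of WNT7B and RSPO1. At 3 months WNT16 was at least 8.1-fold higher in VAF, or at least 3.5-fold without VF3-3, taking 3 counts per library for SAF. The test over the 3 ages gave an edgeR adjusted p of 0.009, and 0.013 without VF3-1 and VF3-2. WNT16 was also the one member called between ages 6 and 1 months in VAF by DESeq2 (17.5-fold higher at 6 months, adjusted p = 0.00019), where edgeR gave 0.067.

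WNT10B, known as an inhibitor of fat cell formation, was higher in VAF by 3.71-fold over the 3 ages (log2 fold change -1.89 ± 0.38 SE, edgeR adjusted p = 0.014). WNT10B in SAF gave 0.93, 2.85 and 1.56 CPM at 1 month, 1.82, 3.04 and 1.49 at 3 months and 1.81, 1.93 and 2.39 at 6 months. WNT10B in VAF gave 22.6, 5.37 and 5.02 CPM at 1 month, 6.34 and 14.6 in VF3-1 and VF3-2, 5.73 in VF3-3, and 5.77, 2.20 and 22.6 at 6 months with VF6-3 last. VAF libraries lay above the SAF libraries of their age at 1 and 3 months, and at 6 months VF6-2 fell among the SAF values. The edgeR call was lost without VF3-1 and VF3-2 (adjusted p = 0.055, 3.18-fold) and without VF6-1 (adjusted p = 0.069). DESeq2 called it at 1 month (6.15-fold, adjusted p = 0.0078) and at 3 months (4.28-fold, adjusted p = 0.003).

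WNT5A is the standard ligand of the branch without beta-catenin. WNT5A in SAF gave 8.91, 12.99 and 12.9 CPM at 1 month, 6.67, 8.03 and 9.42 at 3 months and 9.06, 13.2 and 4.94 at 6 months. WNT5A in VAF gave 21.7, 11.6 and 12.3 CPM at 1 month, 63.6 and 21.2 in VF3-1 and VF3-2, 16.4 in VF3-3, and 19.02, 22.8 and 47.8 at 6 months with VF6-3 last. The highest value was in VF3-1, and at 1 month the depots overlapped. Over the 3 ages WNT5A was 2.34-fold higher in VAF (log2 fold change -1.23 ± 0.27 SE, edgeR adjusted p = 0.024), and the call was lost without VF3-1 and VF3-2 (1.83-fold, adjusted p = 0.073). It was also lost in 4 of 17 edgeR fits that leave out 1 library, SF1-1, SF3-1, VF6-1 or VF6-2 (adjusted p from 0.053 to 0.065), and with the replicate block (adjusted p = 0.082). At 3 months it was 5.41-fold higher without VF3-3 (adjusted p = 0.011), while VF3-3 itself stood 1.00 above SAF of 3 months on the log2(CPM + 0.5) scale against 2.14 for VF3-1 and VF3-2.

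WNT5B, a ligand reported to favour fat cell formation, had the highest level per kb of the ligands. WNT5B in SAF gave 5.39, 19.97 and 10.6 CPM at 1 month, 9.23, 25.1 and 7.93 at 3 months and 23.7, 23.6 and 3.19 at 6 months. WNT5B in VAF gave 29.6, 50.7 and 27.6 CPM at 1 month, 26.8 and 46.02 in VF3-1 and VF3-2, 25.03 in VF3-3, and 56.7, 53.3 and 12.2 at 6 months with VF6-3 last. SAF libraries of 3 and 6 months spread widely, with SF3-2, SF6-1 and SF6-2 near the lower VAF values. It was 2.85-fold higher in VAF over the 3 ages (log2 fold change -1.51 ± 0.38 SE, edgeR adjusted p = 0.036). That call was lost with VF6-3 included (adjusted p = 0.064) and without VF3-1 and VF3-2 (adjusted p = 0.15). It was also lost in 9 of 17 edgeR fits that leave out 1 library, SF1-1, SF1-3, SF3-1, SF3-3, VF1-2, VF1-3, VF3-2, VF6-1 or VF6-2 (adjusted p from 0.055 to 0.099), and with groups by title (adjusted p = 0.052). DESeq2 called it at 1 month (2.99-fold, adjusted p = 0.043).

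WNT7B, a ligand of epithelia, was at 0 counts in all 9 SAF libraries and in VAF of 1 month. WNT7B in SAF gave 0, 0 and 0 CPM at 1 month, 0, 0 and 0 at 3 months and 0, 0 and 0 at 6 months. WNT7B in VAF gave 0, 0 and 0 CPM at 1 month, 44.6 and 13.8 in VF3-1 and VF3-2, 0.04 in VF3-3, and 0.12, 0 and 0.08 at 6 months with VF6-3 last. VF3-1 held 851 counts and VF3-2 276 counts, while VF3-3 held 1 and the 6-month libraries at most 2. At 3 months it was at least 115-fold higher in VAF than in SAF, or at least 172.3-fold without VF3-3, and at least 135.7-fold higher in VAF of 3 months than of 1 month. In the edgeR fits of the 3-month libraries it passed the filter on low counts when VF3-3 was left out (edgeR adjusted p = 0.0037). It passed by being high in VF3-1 and VF3-2, so this p is not support separate from their counts. DESeq2 called it with all libraries (adjusted p = 0.0098). The 2 libraries with WNT7B were those with the urothelial and smooth muscle markers, and VF3-3 had a urothelial sum of 6.49 CPM.

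**Figure D5:**
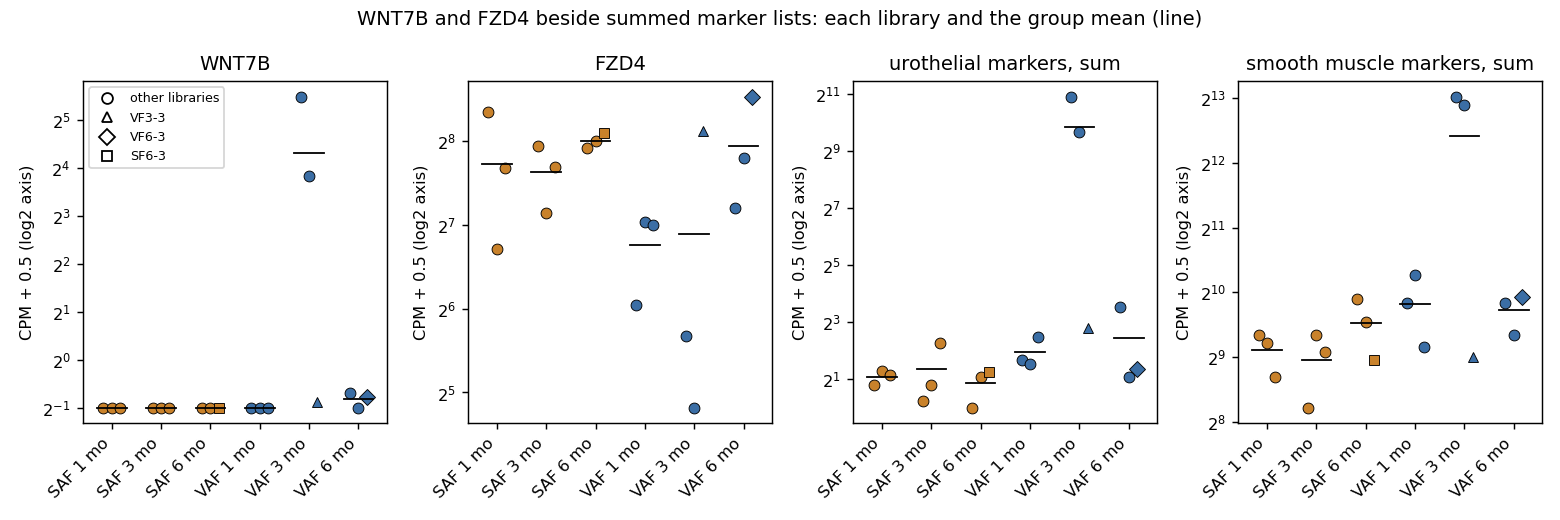
WNT7B and FZD4 beside the summed CPM of 8 urothelial and 7 smooth muscle markers, as CPM plus 0.5 on log2 axes, 1 point per library and the group mean as a line (orange SAF, blue VAF). VF3-1 and VF3-2 lie above every other library, or below it for FZD4, in all 4 panels, and VF3-3, the triangle, does not.

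The members WNT7B, FZD2, FZD7 and RSPO1 were above all other libraries in both VF3-1 and VF3-2, and FZD4 was below all others in both. Of the 32 members tested over the 3 ages, the 4 above are 12.5%, beside 10.6% of the 16664 genes tested, and the 1 below is 3.12%, beside 8.47% of genes.

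Among the ligands with no call, WNT3 and WNT4 had groups without overlap in more than 1 comparison. WNT3, a beta-catenin ligand, lay higher in SAF at 3 months, and at 6 months lower in SAF than in VF6-1 and VF6-2. WNT3 in SAF gave 1.54, 2.75 and 2.76 CPM at 1 month, 1.65, 1.70 and 2.01 at 3 months and 1.94, 1.71 and 1.91 at 6 months. WNT3 in VAF gave 0.47, 2.12 and 2.84 CPM at 1 month, 0.73 and 0.35 in VF3-1 and VF3-2, 1.19 in VF3-3, and 2.06, 2.44 and 1.76 at 6 months with VF6-3 last. WNT4, a ligand of gonad and kidney development, was dominated by VF1-1. WNT4 in SAF gave 0.77, 0.71 and 1.15 CPM at 1 month, 1.65, 1.40 and 3.09 at 3 months and 2.50, 3.70 and 0.69 at 6 months. WNT4 in VAF gave 15.04, 1.26 and 1.15 CPM at 1 month, 4.97 and 2.50 in VF3-1 and VF3-2, 3.14 in VF3-3, and 2.18, 0.55 and 8.21 at 6 months with VF6-3 last. Neither was called by either tool in any comparison of depots or ages. WNT2 ran from 2.71 to 76.2 CPM with its highest value in VF1-1, and WNT11 from 4.73 to 30.3 CPM with its highest in SF1-2. WNT9A stayed between 4.40 and 10.8 CPM. WNT6 reached 9.30 CPM in SF6-3 and was at most 1.50 CPM in the other 17 libraries.

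Of the receptors, FZD4, which also serves the ligand norrin in vessels, was the highest per kb. FZD4 in SAF gave 325, 105 and 204 CPM at 1 month, 244, 141 and 206 at 3 months and 241, 256 and 272 at 6 months. FZD4 in VAF gave 65.4, 131 and 128 CPM at 1 month, 50.4 and 27.8 in VF3-1 and VF3-2, 278 in VF3-3, and 146, 221 and 369.6 at 6 months with VF6-3 last. VF3-1 and VF3-2 were the lowest of the 18, while VF3-3 lay above the 3 SAF libraries of its age. Without VF3-3 it was 4.88-fold higher in SAF at 3 months (log2 fold change 2.29 ± 0.35 SE, edgeR adjusted p = 0.0066) and 4.69-fold higher in VAF of 6 than of 3 months (adjusted p = 0.012). With all 3 libraries these were 1.65-fold and 1.53-fold with edgeR adjusted p of 0.72 and 0.87. Neither call was kept with groups by sample title, where VF6-1 counts as 3 months.

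FZD2 and FZD7, close relatives among the receptors, showed the reverse at 3 months. FZD2 in SAF gave 2.97, 14.47 and 8.23 CPM at 1 month, 2.39, 5.60 and 6.28 at 3 months and 3.62, 5.08 and 4.78 at 6 months. FZD2 in VAF gave 9.38, 9.82 and 8.28 CPM at 1 month, 15.03 and 22.9 in VF3-1 and VF3-2, 6.11 in VF3-3, and 5.65, 2.32 and 4.64 at 6 months with VF6-3 last. FZD7 in SAF gave 16.99, 25.5 and 13.4 CPM at 1 month, 19.1, 27.9 and 25.4 at 3 months and 19.4, 20.4 and 22.3 at 6 months. FZD7 in VAF gave 23.6, 19.1 and 17.4 CPM at 1 month, 44.04 and 56.4 in VF3-1 and VF3-2, 23.2 in VF3-3, and 17.7, 23.3 and 26.7 at 6 months with VF6-3 last. VF3-1 and VF3-2 were the highest 2 libraries for both genes, and VF3-3 stood inside the SAF range of 3 months for them. Without VF3-3, FZD2 was 4.12-fold and FZD7 2.15-fold higher in VAF at 3 months (edgeR adjusted p = 0.02 and 0.018). Both were also lower in VAF of 6 than of 3 months (4.83-fold and 2.48-fold, edgeR adjusted p = 0.033 and 0.032). With VF3-3 left out and VF6-3 included, FZD2 kept the call between these ages and FZD7 lost it. FZD7 was also 2.55-fold higher in VAF of 3 than of 1 month without VF3-3 (edgeR adjusted p = 0.02). With groups by sample title, where VF6-1 counts as 3 months, no call of FZD2 or FZD7 was kept.

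FZD1 is a close relative of FZD2 and FZD7. FZD1 in SAF gave 17.8, 37.9 and 19.3 CPM at 1 month, 14.6, 23.00 and 23.9 at 3 months and 21.7, 29.9 and 26.1 at 6 months. FZD1 in VAF gave 24.1, 26.5 and 20.3 CPM at 1 month, 38.9 and 37.8 in VF3-1 and VF3-2, 25.1 in VF3-3, and 30.4, 23.5 and 35.5 at 6 months with VF6-3 last. All VAF libraries of 3 months lay above the SAF libraries of 3 months, by 1.93-fold without VF3-3 (edgeR adjusted p = 0.04) and by 1.68-fold with it (adjusted p = 0.32). FZD10 was lower in SAF at 6 months than at 1 month by DESeq2 (3.13-fold, adjusted p = 0.031). FZD10 in SAF gave 4.89, 8.51 and 9.12 CPM at 1 month, 3.82, 3.35 and 6.69 at 3 months and 3.69, 2.43 and 1.06 at 6 months. FZD10 in VAF gave 6.13, 6.45 and 4.74 CPM at 1 month, 1.78 and 3.30 in VF3-1 and VF3-2, 2.38 in VF3-3, and 4.48, 2.75 and 0.77 at 6 months with VF6-3 last. The edgeR adjusted p for this change was 0.23.

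FZD3 and FZD5 had no call in the fits of 2 groups, but groups without overlap in at least 2 comparisons. FZD3 in SAF gave 1.37, 1.89 and 1.41 CPM at 1 month, 0.51, 1.64 and 1.03 at 3 months and 0.87, 1.05 and 1.33 at 6 months. FZD3 in VAF gave 2.18, 2.21 and 1.94 CPM at 1 month, 4.71 and 1.50 in VF3-1 and VF3-2, 2.21 in VF3-3, and 1.00, 1.34 and 9.36 at 6 months with VF6-3 last. FZD5 in SAF gave 3.30, 3.06 and 2.24 CPM at 1 month, 3.70, 2.80 and 3.45 at 3 months and 3.87, 4.20 and 5.21 at 6 months. FZD5 in VAF gave 1.36, 3.25 and 3.21 CPM at 1 month, 3.35 and 2.65 in VF3-1 and VF3-2, 4.84 in VF3-3, and 4.06, 4.22 and 4.87 at 6 months with VF6-3 last. FZD5 differed by small amounts, with SAF of 6 months above SAF of 1 and of 3 months. FZD6 ran from 1.50 to 26.2 CPM and FZD8 from 16.9 to 51.1 CPM, with no call for either.

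Secreted Frizzled-related proteins were the most abundant class. SFRP5, a secreted protein of fat known to bind WNT5A, was the member higher in SAF at 3 months by DESeq2 (3.26-fold, adjusted p = 0.0017) and by edgeR without VF3-3 (2.88-fold, adjusted p = 0.048). SFRP5 in SAF gave 185, 158 and 185 CPM at 1 month, 412, 217 and 169.5 at 3 months and 316, 48.7 and 93.8 at 6 months. SFRP5 in VAF gave 134, 154 and 111 CPM at 1 month, 111 and 68.5 in VF3-1 and VF3-2, 61.7 in VF3-3, and 274, 129.8 and 46.9 at 6 months with VF6-3 last. SAF libraries lay above VAF libraries at 1 and 3 months, VF3-3 included, and at 6 months the depots overlapped. With all 3 libraries the edgeR adjusted p at 3 months was 0.2.

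SFRP1 was higher in SAF at 3 months without VF3-3 (2.30-fold, edgeR adjusted p = 0.029), and the value with it was 1.95-fold (adjusted p = 0.28). SFRP1 in SAF gave 717, 387 and 826 CPM at 1 month, 436, 735 and 616 at 3 months and 342, 281 and 109 at 6 months. SFRP1 in VAF gave 360.5, 452 and 618 CPM at 1 month, 221 and 279 in VF3-1 and VF3-2, 404 in VF3-3, and 306, 319 and 142 at 6 months with VF6-3 last. In SAF it also lay lower at 6 months than at 3 or 1 month without overlap, with SF6-3 the lowest of all libraries. DESeq2 called the change from 1 to 6 months (2.63-fold lower, adjusted p = 0.05 after rounding), and edgeR gave 0.27.

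SFRP2, a protein secreted by stromal cells, had its highest value in VF3-2. SFRP2 in SAF gave 33.9, 53.9 and 41.7 CPM at 1 month, 23.8, 19.7 and 48.4 at 3 months and 28.7, 44.3 and 5.74 at 6 months. SFRP2 in VAF gave 45.8, 52.6 and 107 CPM at 1 month, 72.9 and 291 in VF3-1 and VF3-2, 48.8 in VF3-3, and 33.04, 5.32 and 26.8 at 6 months with VF6-3 last. DESeq2 called it higher in VAF at 3 months (4.62-fold, adjusted p = 0.012) and lower in VAF of 6 than of 3 months (7.34-fold, adjusted p = 0.047). Its values of 5.74 CPM in SF6-3 and 5.32 CPM in VF6-2 were the lowest of the 18. SFRP4 had groups without overlap between 3 and 6 months in both depots. It was called only with the replicate block, in VAF of 6 against 3 months. SFRP4 in SAF gave 50.4, 173 and 84.9 CPM at 1 month, 97.1, 93.6 and 87.1 at 3 months and 55.5, 85.4 and 22.8 at 6 months. SFRP4 in VAF gave 185, 37.2 and 57.2 CPM at 1 month, 92.3 and 171 in VF3-1 and VF3-2, 78.8 in VF3-3, and 61.4, 44.9 and 43.1 at 6 months with VF6-3 last. Its lowest value was again that of SF6-3.

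Of the Dickkopf proteins, DKK3, a divergent member that is not known as a blocker of LRP6, was higher in VAF by DESeq2 at 3 months (3.56-fold, adjusted p = 0.00094) and 6 months (4.28-fold, adjusted p = 1e-05). DKK3 in SAF gave 2.25, 35.2 and 8.96 CPM at 1 month, 5.02, 6.21 and 13.8 at 3 months and 5.75, 5.19 and 4.62 at 6 months. DKK3 in VAF gave 12.8, 11.51 and 23.1 CPM at 1 month, 27.5 and 33.01 in VF3-1 and VF3-2, 26.9 in VF3-3, and 27.6, 16.9 and 92.5 at 6 months with VF6-3 last. VAF libraries lay above SAF libraries at 3 and 6 months, VF3-3 included, whereas SF1-2 was above all VAF libraries of 1 month. Over the 3 ages the edgeR adjusted p was 0.066, and 0.037 with VF6-3 included.

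DKK2, a blocker of LRP5 and LRP6, was 1.87-fold higher in VAF at 3 months without VF3-3 (edgeR adjusted p = 0.025) and 1.51-fold higher with it (adjusted p = 0.52). DKK2 in SAF gave 30.6, 38.2 and 33.5 CPM at 1 month, 33.9, 24.6 and 24.1 at 3 months and 29.8, 25.8 and 34.8 at 6 months. DKK2 in VAF gave 60.3, 36.4 and 23.1 CPM at 1 month, 49.9 and 49.9 in VF3-1 and VF3-2, 22.4 in VF3-3, and 24.3, 14.1 and 76.4 at 6 months with VF6-3 last. At 6 months the 2 VAF libraries tested were below all 3 SAF libraries, while VF6-3 was the highest of all 18. From 3 to 6 months in VAF DKK2 was 2.63-fold lower without VF3-3 (edgeR adjusted p = 0.034), a call lost when VF6-3 was included as well. Groups by sample title kept neither DKK2 call.

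RSPO1, an agonist of Wnt signalling through LGR receptors, was at or near 0 in SAF. RSPO1 in SAF gave 0, 0 and 0 CPM at 1 month, 0, 0.06 and 0 at 3 months and 0, 0 and 0 at 6 months. RSPO1 in VAF gave 0, 0.22 and 0.78 CPM at 1 month, 15.1 and 12.2 in VF3-1 and VF3-2, 1.10 in VF3-3, and 3.36, 0.31 and 2.38 at 6 months with VF6-3 last. SAF held 1 count in all, in SF3-2. RSPO1 therefore passed the filter on low counts through VAF libraries alone, and its p-values are not support separate from these counts. VF1-1 held 0 counts, so the depots touch at 1 month, and VF3-3 held 26 counts against 289 in VF3-1 and 243 in VF3-2. At 3 months RSPO1 was at least 55.9-fold higher in VAF, or at least 80.6-fold without VF3-3, and at 6 months at least 10.7-fold higher. The bound at 6 months rests on VF6-1, and without it was at least 1.8-fold. Over the 3 ages the edgeR adjusted p was 0.0084, and 0.035 without VF3-1 and VF3-2. It rose in VAF from 1 to 3 months by DESeq2 (28.6-fold, adjusted p = 0.00046) and by edgeR without VF3-3 (38.7-fold, adjusted p = 0.027).

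RSPO3, the R-spondin detected in every library, fell in SAF from 3 to 6 months by DESeq2 (2.53-fold lower, adjusted p = 0.028), where edgeR gave 0.28. RSPO3 in SAF gave 8.47, 5.10 and 9.17 CPM at 1 month, 15.3, 9.73 and 7.16 at 3 months and 3.25, 4.42 and 5.05 at 6 months. RSPO3 in VAF gave 7.90, 10.9 and 7.82 CPM at 1 month, 10.1 and 4.30 in VF3-1 and VF3-2, 6.92 in VF3-3, and 8.07, 5.74 and 7.98 at 6 months with VF6-3 last. The 3 SAF libraries of 6 months lay below every other SAF library.

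Changes with age were tested within each depot, and comparisons of neighbouring ages share the libraries of 3 months. With edgeR, 0 members were called between ages in SAF: 0 of 27 from 1 to 3 months (0.101% of genes), 0 of 27 from 3 to 6 months (0.0%) and 0 of 28 from 1 to 6 months (0.303%), and 3, 3 and 5 members had a p below 0.05 before adjustment (13.6%, 9.56% and 12.7% of genes). For VAF the calls were 0 of 29 from 1 to 3 months (0.0%), from 3 to 6 months (0.0%) and from 1 to 6 months (0.936%), and 6, 8 and 4 members had a p below 0.05 before adjustment (9.07%, 10.8% and 17.9% of genes). DESeq2 called 0 and 1 members for the first 2 steps in SAF (3.5% and 2.2% of genes) and 2 from 1 to 6 months (3.5%). In VAF it called 2, 1 and 1 members (3.65%, 3.18% and 7.5% of genes). Without VF3-3, edgeR called 3 members from 1 to 3 months in VAF (6.44% of genes) and 5 from 3 to 6 months (11.0%). These calls rest on the library names. With groups by sample title, which count VF6-1 as 3 months and include VF6-3, both comparisons called 0 members (0.0% of genes). Leaving VF3-3 out of the title groups also gave 0 members from 3 to 6 months (0.0%). When replicate number was added as a block, 4 members were called from 1 to 6 months in VAF (5.46% of genes), on 1 residual degree of freedom. FZD4 was higher and WNT2, WNT10B and DKK2 lower at 6 months, although the pigs of these ages differ. With VF6-3 included, this block called 0 members and 0.0% of genes.

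Whether the depots changed differently with age was tested by interaction terms in the fit of all groups. For 3 against 1 months and for 6 against 3 months, 0 of 32 members were called by edgeR and 0 of 31 by DESeq2. Beside these were 0.0% of genes by edgeR and 0.62% and 0.655% by DESeq2. Before adjustment, p was below 0.05 for 2 and 8 members with edgeR (5.66% and 8.7% of genes).

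Other genes of the pathway were counted from 6 fixed lists holding 72 genes. Over the 3 ages edgeR called 4 of the 69 tested, beside 4.09% of all genes, 3 of them with more in SAF and 1 with more in VAF. Without VF3-1 and VF3-2 it called 0 of 69, beside 1.66% of all genes, and 8 had a p below 0.05 before adjustment, beside 13.0% of all genes. LGR5, a receptor of R-spondins, was higher in SAF (log2 fold change 3.85 ± 0.91 SE, adjusted p = 0.031), with 1.15 to 9.58 CPM in SAF and 0 to 1.12 CPM in VAF. RECK, a co-receptor for WNT7 ligands, was 20.5 ± 4.69 CPM in SAF and 15.6 ± 8.14 CPM in VAF (SD, n = 9, adjusted p = 0.026 by edgeR). GPC4, a glypican that carries Wnt ligands, was 16.8 ± 5.66 and 10.3 ± 2.12 CPM (edgeR adjusted p = 0.045, n = 9). TCF7, a partner of beta-catenin, was higher in VAF at 2.78 ± 1.19 against 1.43 ± 0.586 CPM (edgeR adjusted p = 0.032, n = 9). The means here include VF6-3, which the tests do not.

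By list, RECK and LGR5 were the 2 called of 14 co-receptors and turnover genes, GPC4 the 1 of 12 other modulators and TCF7 the 1 of 20 relay genes. LGR5 and TCF7 were also the 2 called of 16 common targets. The 2 genes of ligand secretion and the 12 of the polarity and calcium branch had 0 calls. At 3 months without VF3-3, 12 of 68 genes were called, beside 17.6% of all genes, 6 in each direction, among them the receptors PTK7 and ROR2 and the ligase RNF43 higher in VAF and LGR5 and TRABD2B higher in SAF. PTK7 was 5.27 ± 1.25 CPM in SAF of 3 months (n = 3) and 27.2 ± 3.32 CPM in VF3-1 and VF3-2 (edgeR adjusted p = 0.0027), and ROR2 was 6.29 ± 0.47 and 21.5 ± 4.06 CPM (edgeR adjusted p = 0.0043).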

How the data were processed

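The data are 18 RNA-seq libraries, 9 of each fat depot. The authors cleaned reads by fastp, mapped these to the Sscrofa11.1 genome by HISAT2 (2.0.4 in the submitters' processing notes) and counted them with HTSeq-count, and the deposited values are these counts per gene, not normalized. The annotation release and strand setting are not given in the sources used here.

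Members were the genes whose symbols name a Wnt, Frizzled, SFRP, DKK or RSPO gene, and all 41 matched RefSeq by symbol. The members and lists were chosen with earlier results of these data known. Every member is accounted for: those with a mean of at least 1 CPM are given by library where called by edgeR, by DESeq2 or by edgeR without VF3-3, or where groups did not overlap in at least 2 comparisons, and otherwise by their range. Members below 1 CPM are given by counts.

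Fits ran on all genes in R 4.3.3 by the quasi-likelihood test of edgeR 4.0.16 (TMM, filterByExpr, 2 groups per fit, no block, VF6-3 left out). Adjustment of p-values was by Benjamini-Hochberg over all genes. The test was tried on simulated data with the same spread for every gene, no deviating library and changed genes of well-counted levels. That simulation does not cover a group with a deviating library, such as VAF of 3 months, or members near 0 counts in a group. DESeq2 1.42.0, its size factors in edgeR, no filter, all groups in one fit, a replicate block, groups by sample title, VF6-3 included, no limit on the fold change and each library left out were alternatives. The contrast over the 3 ages and the fits without VF3-1 and VF3-2 were chosen after seeing the data. Where no library of a group exceeds 3 counts, the fold is a lower bound taken at 3 counts per library; fitted folds of such genes are not given. One promoter sequence is not reported here. Promoters were read with pysam 0.24.0 and tables made with pandas 2.3.3.

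Replicate numbers are in the library names, and the sources do not say that a number marks 1 pig. Correlations of deviations from group means (log2(CPM + 0.5)) between same-numbered SAF and VAF libraries were 0.648, 0.505 and 0.688 at 6 months, and 0.227, 0.117 and 0.113 between VAF of 6 and 1 months. In every other pair of groups at least 1 of them was under 0.1. VAF of 6 and 1 months come from different pigs, so values above 0.1 do not show that equal numbers mark 1 pig. Where nothing says that replicates are separate extractions of separate animals, p-values measure only the spread between these libraries.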

Additional observations from a re-analysis of the deposited data

Results flagged for a closer look

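VF6-3, the VAF library of 6 months that the tests do not use, held the highest value of 6 members, and for 2 of them it was at least 2 times the highest of the other 17 libraries. WNT16 was 38.66 CPM in VF6-3, and the next library was VF6-1 with 5.24 CPM. DKK3 was 92.46 CPM in VF6-3, and the next library was SF1-2 with 35.16 CPM. The other 4 were WNT2B with 23.16 CPM, FZD3 with 9.36, FZD4 with 369.6 and DKK2 with 76.39 CPM. The summed immune markers were also highest in VF6-3, at 1372.4 CPM against at most 635.3 CPM elsewhere. CD163 at 825.65 and CSF1R at 412.4 CPM made up most of this sum, and PTPRC, CD68, CD3E and MS4A1 were not highest there. Of the stromal markers, PI16 at 1925.87 and PDGFRA at 268.02 CPM were highest in VF6-3, and PDGFRB, DCN, LUM and DPP4 were not. Of the mesothelial markers, WT1 at 22.32 CPM was highest there and the others were not. The part of these markers in the member values was not tested. No pattern of this kind was tested, since it is seen in 1 library.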

How the results depend on the processing

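Among 38 pairs of a called member and a comparison, 501 of 608 alternative values kept their direction and their side of the threshold, 82 passed it where the main value did not, 21 fell below it and 4 changed sign. FZD4 (-0.47), FZD7 (0.09) and DKK2 (0.32) changed sign for log2 fold change of SAF over VAF at 3 months in a fit of all groups without VF3-1 and VF3-2, and DKK2 (0.15) for VAF of 6 against 3 months with groups by title and VF3-3 left out. The cause was not tested. Counts of called members were 0 in each pairwise comparison by the main test. DESeq2 called 3, 9 and 3 members between depots at 1, 3 and 6 months, 1 and 2 in SAF of 6 against 3 and 6 against 1 months, and 2, 1 and 1 in VAF of 3 against 1, 6 against 3 and 6 against 1 months. Leaving out single libraries gave 0 to 15 members between depots at 3 months, 0 to 3 in VAF of 3 against 1 months and 0 to 5 in VAF of 6 against 3 months, the highest each time without VF3-3. One fit of all groups called 4 members between depots at 3 months (2.73% of genes), and 12 there (17.8%), 4 in VAF of 3 against 1 months (8.76%) and 7 in VAF of 6 against 3 months (12.9%) with VF3-3 left out. Groups by sample title called 1 member between depots at 3 months (RSPO1) and 0 in VAF of 3 against 1 and of 6 against 3 months. No filter on low counts called 1 in VAF of 6 against 1 months. VF3-3 left out with VF6-3 included called 3 in VAF of 6 against 3 months. Over the 3 ages 6 members were called, 3 without VF3-1 and VF3-2, 8 without VF3-3, 6 without SF6-3 and 3 to 7 without each of the 15 other libraries of the fit, the 3 without VF6-1. The replicate block called 5 members between depots at 6 months (2 with VF6-3 included) and 4 in VAF of 6 against 1 months (0 with VF6-3 included). Both fits had 1 residual degree of freedom without VF6-3. The numbers passed the pairing check in both, but VAF of 6 and 1 months come from different pigs and share only a number. The other pairwise comparisons did not pass it. There the block called 1 member between depots at 3 months and 10 in VAF of 6 against 3 months (14.7% of genes), again on 1 residual degree of freedom. Over the 3 ages the block called 6, with WNT7B in place of WNT5A. It changed no other count. At the depth here, 3 counts are at most 0.187 CPM, and RSPO1 could not be tested by edgeR at 6 months because it failed the filter.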
